A study of Mus musculus with 32 samples.

Results

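CH12F3, a mouse B lymphoma line used as a model of class switching, was compared with primary mouse B cells from spleen, using 7 of the 32 libraries of the series, all ELOF1-proficient and from the second run of library numbers. The line side had 4 libraries, replicates 3 and 4 at day 1.5 and replicates 1 and 2 at day 3 of stimulation with α-CD40, IL4 and TGF-β. These cells carry an Elof1 knockout to which ELOF1 was returned (Elof1-KO +ELOF1), so their ELOF1 comes from a construct. The spleen side had 3 libraries, replicates 1 to 3 of wild-type B cells after 2.5 days with IL4 and LPS. IL4 was given to both systems, TGF-β and the CD40 antibody only to the line and LPS only to spleen cells. The sources used here give no age, sex or strain of the animals, no number of clones and no word on whether replicates were separate cultures or animals, so p-values measure the spread between these libraries, which may be partly technical. The cell system, the stimulus, the day and the rescue construct change together, and their parts in any difference below cannot be told apart.

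An activated B cell can exchange the constant region of its antibody heavy chain by class switch recombination, which joins transcribed switch regions to each other. TGF-β directs the switch to IgA, and IL-4 with LPS directs it to IgG1 and IgE. Each B cell carries its own rearranged V, D and J segments, so a clonal line uses one combination and a spleen population uses many. CH12 lymphoma cells are known to resemble B-1 cells, a self-renewing B cell lineage that can carry CD5, whereas most spleen B cells are follicular B-2 cells.

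Mouse counts were 10160465 to 15163087 per library, and the fly RNA added per cell gave counts of 2.27% to 2.88% of the mouse counts in the line and 4.70% to 5.59% in spleen. Mitochondrial ribosomal RNA took 0.431% to 0.566% of mouse counts in the line and 0.0700% to 0.0852% in spleen. Log2 CPM correlated across genes at 0.984 to 0.992 between line libraries, 0.987 to 0.988 between spleen libraries and 0.763 to 0.771 between the systems. The 4 line libraries resembled each other in 2 pairs that cross the days (correlation of deviations 0.536). These were replicate 3 of day 1.5 with replicate 1 of day 3, and replicate 4 with replicate 2. With 2 libraries per day the deviations within a day mirror each other, so both pairs give this 1 correlation. The main tests below treat the 4 line libraries as separate and do not model the pairs. Xist, the RNA of the inactive X chromosome, was at 585 and 476 CPM in spleen replicates 1 and 3, 0.580 CPM in replicate 2 and 0.125 to 0.306 CPM in the line. The Y-linked Ddx3y was at 53.6 CPM in spleen replicate 2, at 0 and 0.298 CPM in spleen replicates 1 and 3 and at 0 in the line. Spleen replicate 2 thus had the pattern of a male and replicates 1 and 3 that of females. Replicate 2 therefore did not come from the same animal as replicates 1 and 3.

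Elof1 itself was higher in the line, where the construct supplies it. It was at 372 and 164 CPM at day 1.5, 302 and 132 CPM at day 3 and 28.5, 22.4 and 59.4 CPM in spleen (log2 fold change 2.71 ± 0.42 SE, adjusted p = 0.000219). The line libraries did not overlap the spleen libraries, and the first library of each day was above the second. In the ELOF1-deficient libraries of the same run the difference was reversed, at -1.62 on the log2 scale.

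Of 13860 genes tested, 9597 differed between the systems, or 69.2%, with 4729 (34.1%) higher and 4868 (35.1%) lower in the line. A stricter group of 2645 genes (19.1%) also differed at least 4-fold with no overlap of the 4 line and 3 spleen libraries, 1497 (10.8%) higher and 1148 (8.28%) lower. These shares are the background against which each gene group below is read. A gene that passed the filter through 1 system alone had to differ, so the counts of a group can be in part set by the filter. In 9692 genes, 69.9% of those tested, the line and spleen libraries did not overlap. All levels are mouse counts scaled to a common library size (CPM, per 1000000 counts), and all differences are log2 fold changes of the line over spleen. With the fly RNA as the scale, the median over all tested genes moved from 0.00 to 1.20, and 10865 genes (78.4%) were called higher and 1300 (9.38%) lower, with 23.5% and 6.43% past 4-fold. The directions below are therefore relative to the typical gene, and for each group whose median changes sign on the fly scale both medians and both sets of counts are given. Every count on the fly scale is to be read against the 78.4% higher and 9.38% lower of all genes on that scale.

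**Figure D1:**
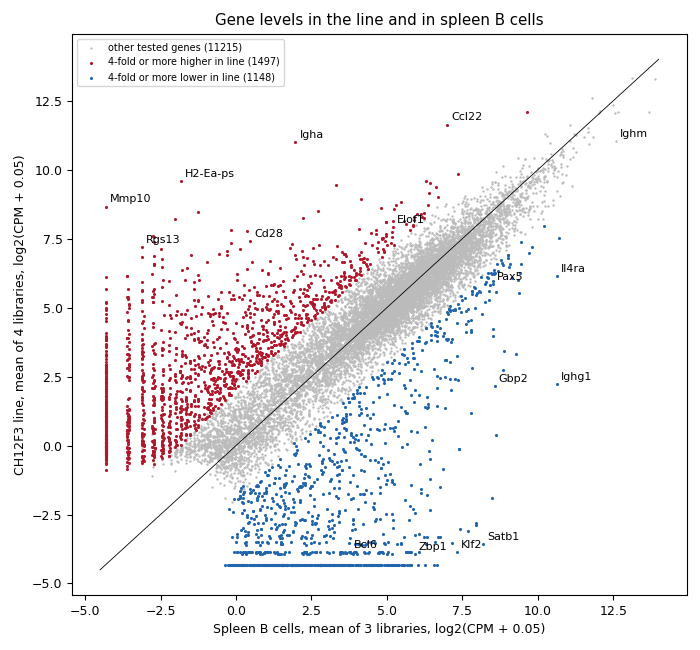
Mean level of each of 13860 tested genes in spleen B cells (x axis, 3 libraries) and in the CH12F3 line (y axis, 4 libraries), both as log2(CPM + 0.05), with the diagonal marking equal levels. Red points are the 1497 genes at least 4-fold higher and blue points the 1148 at least 4-fold lower in the line, and the rows of points at the left and lower edges are genes at or near 0 in one system.

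The genes with the largest excess in the line included several that spleen B cells hardly transcribed. Mmp10, a secreted matrix metalloproteinase, was at 111 and 693 CPM at day 1.5, 87.3 and 727 CPM at day 3 and 0 CPM in all 3 libraries of spleen, at least 1342-fold higher in the line against a floor of 3 counts per spleen library. Its 2 pairs of line libraries differed, and with robust dispersions its adjusted p was 0.0808. Rgs13, an inhibitor of G protein signalling typical of germinal centre B cells, was at 181 and 106 CPM at day 1.5, 179 and 115 CPM at day 3 and 0, 0.0966 and 0.0994 CPM in spleen, a ratio of 2226-fold (95% counting interval 602 to 17947). Stard13, a GTPase-activating protein, was at 175 to 222.4 CPM in the line and 0 to 0.199 CPM in spleen, a ratio of 1962-fold (95% counting interval 659 to 9332). Nrp1, a coreceptor for semaphorins and VEGF, was at 119 to 162 CPM in the line and 0 to 0.386 CPM in spleen. Ccdc80, Btbd11, the aminopeptidase gene Anpep and the extracellular matrix gene Fras1 were among the 12 largest as well, at line levels of 89.9 to 236 CPM and spleen levels of 0 to 0.422 CPM.

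H2-Ea-ps, the gene of the MHC class II E alpha chain, was at 867 and 712 CPM at day 1.5, 794 and 698 CPM at day 3 and 0, 0.0966 and 0.596 CPM in spleen (log2 fold change 11.62 ± 0.29 SE, adjusted p = 6.74e-10). The annotation calls it a polymorphic pseudogene, since some mouse strains carry a null allele and others a working one. It lies on the minus strand of chromosome 17 from 34342933 to 34344643 of mm10, and its 4 line libraries were all far above the spleen libraries. Ftl2-ps, a processed pseudogene of a ferritin light chain gene, was at 274 to 462 CPM in the line and 0.298 to 0.422 CPM in spleen. Mir692-2 overlaps it on the same strand, so its values of 229.9 to 393 CPM in the line and 0 to 0.386 CPM in spleen cannot be separated from those of Ftl2-ps. Reads of both may come from near-identical ferritin copies, and whether the counting split them is not given in the sources used here.

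The largest deficits in the line included genes of resting and recirculating B cells and genes without a single count in the line. Satb1, a chromatin organiser, was at 0 and 0.0627 CPM at day 1.5, 0.0765 and 0 CPM at day 3 and 336, 273 and 272 CPM in spleen, 8435-fold (95% counting interval 2333 to 69601) lower in the line. Klf2, a transcription factor that sustains quiescence and recirculation, was at 0 CPM in both libraries at day 1.5, 0.0765 and 0 CPM at day 3 and 149, 173 and 159 CPM in spleen, 8362-fold (95% counting interval 1649 to 362849) lower. All 3 spleen libraries were above every line library for both genes, and the line libraries held 0 or 1 count each.

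Pmepa1, which TGF-β induces and which restrains TGF-β signalling, had no count in any line library and was at 103, 107 and 94.2 CPM in spleen, at least 482-fold lower in the line. Mtap, the methylthioadenosine phosphorylase of the methionine salvage pathway, also had no count in the line and was at 104, 79.3 and 100.4 CPM in spleen, at least 450.2-fold lower. The surface glycoprotein gene Thy1 was at 0 to 0.223 CPM in the line and 219.9 to 267 CPM in spleen, and Pag1, an adaptor of Src family kinase control, at 0 to 0.267 CPM in the line and 190.2 to 221.02 CPM in spleen. Trp53i11, Zcchc18, the kinase gene Prkd3, Tes and Plbd1 completed the 12 largest, with spleen levels of 77.2 to 273 CPM and line levels of 0 to 0.298 CPM. Their line and spleen libraries did not overlap.

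In all, 66 genes had no count in any line library and at least 20 CPM on average in spleen, of which 32 were immunoglobulin V segments and 32 protein-coding genes. Among the latter, chosen here after their values were seen, were the insulin signalling genes Insr and Irs2, the peptidase gene Dpp4 and the corepressor gene Tle1. The opposite set, no count in any spleen library and at least 20 CPM in the line, held 10 protein-coding genes, among them Camk4, Fgf21, Pappa2 and Fbln1.

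The antibody genes separated the systems by clone and by constant gene. Counts per gene do not tell transcripts of switched constant genes from those of unswitched constant genes. In the line, Ighv1-53 (chromosome 12, 115158403 to 115158835, minus strand, mm10) took 99.2% ± 0.0719 of the heavy V gene counts (SD, n = 4), and its share in spleen was 2.44% ± 0.389 (SD, n = 3). The most abundant heavy V gene of spleen was Ighv1-82, with 4.70% ± 0.457 of counts (SD, n = 3) and none in the line. Heavy V genes with at least 10 counts numbered 1 or 2 in line libraries and 85 to 92 in spleen libraries, from totals of 5438 to 5942 and 9493 to 14034 V gene counts.

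Light chains showed the same contrast. Igkv10-96 (chromosome 6, 68631963 to 68632430, minus strand) took 96.9% ± 0.255 of kappa V counts in the line (SD, n = 4), and the top kappa V gene of spleen, Igkv1-117, took 7.84% ± 0.428 (SD, n = 3). Among J segments, Ighj2 held 84.6% ± 1.05 of heavy J counts in the line and 27.7% ± 0.376 in spleen, and Igkj1 held 90.0% ± 1.71 and 33.0% ± 0.0508 of kappa J counts. All 116 to 132 D segment counts of each line library fell on Ighd1-1, which held 65.4% to 70.8% in spleen. The share of the top V gene differed by 94.5 percentage points for heavy and 89.1 for kappa chains, with complete separation of the libraries (exact 2-sided permutation p = 0.0571 for each). That is the smallest p that 4 against 3 libraries allow, so no exact permutation test of a single value can pass 0.05 here. The p is unchanged after adjustment over the 5 values tested. It also counts the 4 line libraries as separate, although they resembled each other in pairs. A clonal line and a mixed population were bound to separate in the share of the top V gene, so its p adds no support. Counts were not molecules with identifiers, and the intervals drawn for these shares cover counting error only.

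Igha, the IgA constant gene, was at 1628 and 1839 CPM at day 1.5, 1973 and 2696 CPM at day 3 and 3.48, 4.54 and 3.58 CPM in spleen (log2 fold change 9.02 ± 0.17 SE, adjusted p = 2.4e-10), far apart in every library. Ighg1, the IgG1 constant gene, was the mirror image at 6.77 and 4.89 CPM at day 1.5, 3.44 and 3.34 CPM at day 3 and 1599.9, 1794 and 1388 CPM in spleen (log2 fold change -8.49 ± 0.14 SE, adjusted p = 1.04e-10). Ighm, the IgM constant gene, was transcribed in both but was lower in the line, at 2898 and 1662 CPM at day 1.5, 2525 and 1377 CPM at day 3 and 5425, 7462 and 5422 CPM in spleen (log2 fold change -1.53 ± 0.23 SE, adjusted p = 0.000153). Scaled by fly RNA, Ighm was at -0.37 and no longer past the threshold.

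The log2 ratio of Igha to Ighm counts was -0.832 and 0.146 at day 1.5, -0.355 and 0.970 at day 3, and -10.6, -10.7 and -10.6 in spleen. That of Ighg1 to Ighm was -8.74, -8.41, -9.52 and -8.69 in the line and -1.76, -2.06 and -1.97 in spleen. The mean differences of 10.6 and -6.91 separated all libraries (exact 2-sided permutation p = 0.0571 for each). Within the line, replicate 4 of day 1.5 and replicate 2 of day 3 held more Igha than Ighm counts, not adjusted for length, and the other pair held fewer.

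The other heavy chain constant genes were lower in the line, and the J chain gene was higher. Ighe, the IgE gene, was at 3.57 and 4.33 CPM at day 1.5, 1.99 and 4.01 CPM at day 3 and 80.3, 44.6 and 73.1 CPM in spleen (log2 fold change -4.24 ± 0.25 SE, adjusted p = 1.5e-07). Ighd was at 1.54 to 4.46 CPM in the line and 56.2 to 64.3 CPM in spleen, Ighg3 at 1.47 to 3.90 CPM in the line and 57.4 to 118 CPM in spleen, Ighg2b at 2.76 to 4.68 CPM in the line and 64.7 to 149 CPM in spleen and Ighg2c at 0.502 to 0.995 CPM in the line and 16.8 to 44.9 CPM in spleen, each with no overlap. Jchain, whose product links IgM and IgA polymers, was at 256 and 319 CPM at day 1.5, 191 and 336 CPM at day 3 and 79.7, 132 and 73.9 CPM in spleen (log2 fold change 1.53 ± 0.24 SE, adjusted p = 0.000196), but against spleen cells of day 3.5 the difference was -0.39. The kappa constant gene Igkc was at 743 to 1133 CPM in the line and 1638 to 2446 CPM in spleen, lower in the line, and at 0.030 on the fly scale. The lambda gene Iglc2 was slightly higher (log2 fold change 0.31 ± 0.11 SE, adjusted p = 0.0283), a call lost without spleen replicate 1, 2 or 3 or line replicate 3 of day 1.5 (0.27, 0.31, 0.34 and 0.18) and turned to -0.74 in the first run.

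**Figure D2:**
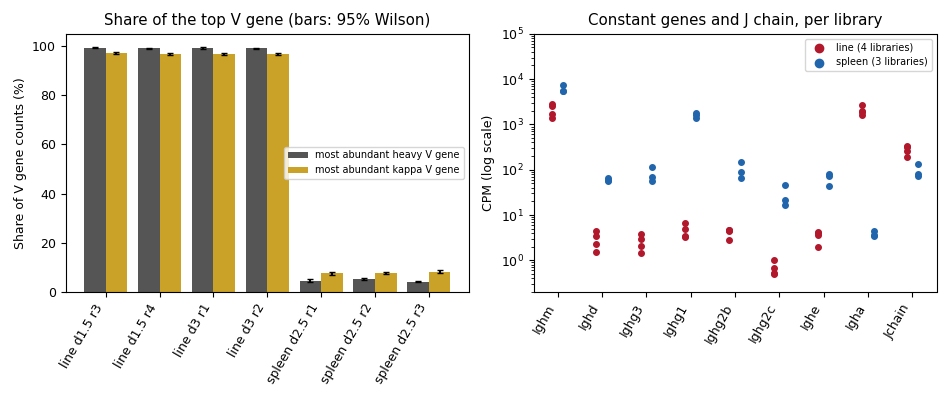
Left, share of heavy and kappa V gene counts held by the most abundant V gene of each library, with 95% Wilson intervals, above 96% in the 4 line libraries and below 9% in the 3 spleen libraries. Right, CPM of heavy chain constant genes and Jchain in each library on a log axis, line in red and spleen in blue, where only Igha and Jchain lie higher in the line.

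B cell identity genes were lower in the line as a group. Of 24 tested, 19 fell, 1 rose and 4 did not pass, with a median of -1.44 against 0.00 for all genes (-0.25 on the fly scale with 9 higher and 11 lower, against 1.20). Pax5, the transcription factor that maintains B cell identity, was at 55.7 and 58.1 CPM at day 1.5, 58.2 and 57.2 CPM at day 3 and 357, 387 and 343 CPM in spleen (log2 fold change -2.66 ± 0.07 SE, adjusted p = 1.09e-09). Bach2, a repressor that holds back plasma cell differentiation, was at 15.7 and 29.0 CPM at day 1.5, 13.9 and 31.8 CPM at day 3 and 200.2, 217.8 and 201 CPM in spleen (log2 fold change -3.18 ± 0.25 SE). The 4 line libraries lay below all spleen libraries for both, and for Bach2 replicate 4 of day 1.5 and replicate 2 of day 3 were about as high as each other and above the other pair.

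Irf8, a factor of B cell and myeloid development, was at 89.5 to 104 CPM in the line and 681 to 720.4 CPM in spleen, and the inhibitory coreceptor gene Cd22 at 109.6 to 146 CPM in the line and 786 to 868 CPM in spleen. The antigen receptor chain gene Cd79b was at 133 to 163 CPM in the line and 859.6 to 941 CPM in spleen (log2 fold change -2.62). Tcf3, which encodes the E2A proteins, was the member that rose, at 438 to 484 CPM in the line and 359 to 378 CPM in spleen (log2 fold change 0.30 ± 0.06 SE). Ebf1, Blk, Spib and Pou2f2 did not pass the test, with log2 fold changes of -0.26, -0.24, 0.16 and -0.016. All 24 members were detected in both systems, with summed levels of 7502 to 8340 CPM in the line and 15148 to 16192 CPM in spleen.

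Follicular and marginal zone genes followed: 15 of 20 fell and 3 rose (median -1.41, and -0.21 on the fly scale with 5 higher and 8 lower). Beside Satb1 and Klf2, the complement receptor gene Cr2 had no count in the line and was at 5.07, 8.79 and 5.66 CPM in spleen, at least 30.9-fold lower. Ccr7, the receptor that guides lymphocytes to lymph nodes, went the other way, at 235 and 274 CPM at day 1.5, 269 and 316 CPM at day 3 and 29.1, 30.6 and 33.0 CPM in spleen (log2 fold change 3.14 ± 0.10 SE, adjusted p = 3.19e-09). The egress receptor gene S1pr1 was at 17.1 to 48.7 CPM in the line and 13.7 to 16.4 CPM in spleen and Ltb, which encodes lymphotoxin beta, at 45.6 to 71.8 CPM in the line and 32.7 to 44.9 CPM in spleen, both higher in the line. In the ELOF1-deficient libraries neither S1pr1 nor Ltb passed, at 0.12 and 0.047.

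Genes associated with B-1 cells were mixed, with 9 of 15 higher and 5 lower, against 34.1% and 35.1% of all genes, and a median of 1.23. A member that passed the filter through the line alone had to be higher, so these counts are in part set by the filter. Cd5, a surface inhibitor of antigen receptor signalling, was at 23.7 and 37.2 CPM at day 1.5, 21.5 and 34.5 CPM at day 3 and 0.422, 0 and 0.199 CPM in spleen (log2 fold change 7.12 ± 0.46 SE, adjusted p = 3.16e-07). Il5ra, the interleukin-5 receptor alpha chain, was at 141 and 181 CPM at day 1.5, 123 and 167 CPM at day 3 and 23.1, 24.7 and 20.7 CPM in spleen (log2 fold change 2.74 ± 0.14 SE). Bhlhe41, a transcription factor of B-1a cell self-renewal, was at 168 to 221.7 CPM in the line and 29.3 to 33.1 CPM in spleen, and the inhibitory receptor gene Ctla4 at 18.4 to 34.0 CPM in the line and 1.26 to 1.59 CPM in spleen, with no overlap in any of the 4. Zbtb32, Plac8 and Spn, which encodes CD43, were lower, at log2 fold changes of -2.21, -2.07 and -1.41. Spn was at -0.20 on the fly scale and lost its call. Arid3a changed by -0.19, a call lost without replicate 4 of day 1.5, replicate 2 of day 3 or spleen replicate 1 (-0.16, -0.16 and -0.19) and turned to 0.12 in the first run and 0.996 on the fly scale.

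**Figure D3:**
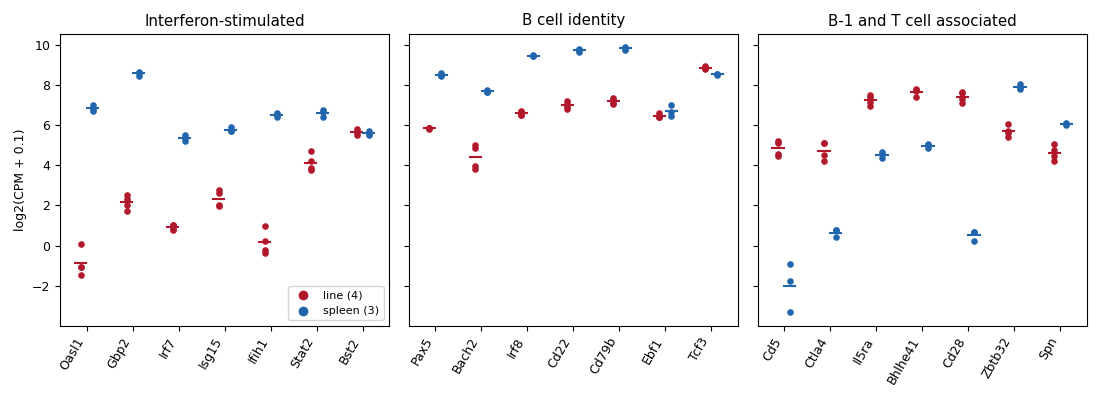
Level of 21 genes, chosen after their values were seen, in each library as log2(CPM + 0.1), the 4 line libraries in red and the 3 spleen libraries in blue, with a bar at each group's mean. In the left and middle panels all genes but Bst2, Ebf1 and Tcf3 lie below spleen in the line, and in the right panel Cd5, Ctla4, Il5ra, Bhlhe41 and Cd28 lie above it.

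Germinal centre and plasma cell genes went in both directions. Of 14 tested germinal centre genes 6 rose and 5 fell, near the 34.1% and 35.1% of all genes (median -0.17). Of 19 plasma cell genes 5 rose and 10 fell (median -0.28). The germinal centre median was 1.03 on the fly scale with 10 higher and 2 lower, and the plasma cell median 0.91 on the fly scale with 12 higher and 4 lower. Bcl6, the repressor that defines germinal centre B cells, was nearly absent from the line at 0.0744 and 0 CPM at day 1.5, 0 CPM in both libraries at day 3 and 16.5, 12.1 and 12.5 CPM in spleen, a ratio of 736-fold (95% counting interval 141 to 31037). The death receptor gene Fas was higher, at 54.6 to 86.1 CPM in the line and 12.5 to 14.5 CPM in spleen, as was the confining receptor gene S1pr2, at 12.9 to 14.5 CPM in the line and 2.38 to 3.38 CPM in spleen, and Mef2b, at 111 to 132 CPM in the line and 31.5 to 41.4 CPM in spleen. Basp1, Mef2c and the histone methyltransferase gene Ezh2 were lower (-2.11, -1.09 and -0.70), but Mef2c and Ezh2 were at 0.088 and 0.49 on the fly scale.

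Among plasma cell genes the costimulatory receptor gene Cd28 was at 157 and 137 CPM at day 1.5, 190.0 and 197 CPM at day 3 and 1.48, 1.06 and 1.49 CPM in spleen (log2 fold change 6.97 ± 0.14 SE, adjusted p = 2.4e-10), and Tigit and Tent5c were also higher (1.51 and 1.22). Tent5c was at -0.11 against spleen cells of day 3.5. Sdc1, which encodes the plasma cell marker CD138, was at 0 to 0.23 CPM in the line and 8.05 to 8.89 CPM in spleen, and Derl3, of the degradation pathway of the endoplasmic reticulum (ER), at 0.0765 to 0.564 CPM in the line and 26.0 to 39.3 CPM in spleen. Eaf2 and Slamf7 were lower as well (-2.77 and -1.69), with Slamf7 at -0.47 and without a call on the fly scale. Irf4, a factor both for activation and plasma cell fate, was at 352 to 389 CPM in the line and 311 to 377 CPM in spleen and did not pass.

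Interferon-stimulated genes had the largest share of lower members among the lists with at least 10 tested genes. Type I interferon acts through a complex that holds STAT2 and IRF9, binds interferon-stimulated response elements in promoters and turns on antiviral sensors and effectors. Of 36 genes listed, 34 were in the tables, 32 were tested and 31 fell, 27 of them at least 4-fold, against 35.1% and 8.28% of all genes. None rose, and Bst2 did not pass, at 49.5 and 44.9 CPM at day 1.5, 55.6 and 51.0 CPM at day 3 and 52.2, 45.7 and 48.4 CPM in spleen. The median was -3.93, -3.74 with the 3 genes at 0 in the line held to their bound, and -2.74 on the fly scale. A member that passed the filter through spleen alone had to be lower, so the counts of lower members are in part set by the filter.

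The RefSeq table (GRCm38.p6) held a promoter for 25 of the listed genes. In the 250 bases before the start, 14 of the 25 genes (56.0%) held the letters GAAA 2 times, with any 2 bases between them, on either strand (TTTC and TTTC on the other), the core of the response element. Of all 27025 genes with such a window 3.46% held it, of the 9634 tested genes with such a window 3.23%, and of all 32851 windows 2.98%. The genes were listed for their response to interferon, so this contrast does not bear on the difference between line and spleen. A match is a description of the letters and not a measured binding site, and overlapping matches were all kept. The count of 14 includes Gbp5, whose expression was not analysed here, and Ifit3b, which has no fold change here. The Ifit3b window nearly repeats that of Ifit3, with the same matches, so these genes are not separate cases. The other 11 genes held no match in any window, among them Cmpk2, which had no count in the line, and Oasl1, Ifih1 and Irf7, at log2 fold changes of -7.94, -6.35 and -4.51. Chosen among the genes with a match, the promoters of 4 with large deficits and of Bst2, the gene that did not pass, are shown 5′ to 3′ in the direction of the gene, with the matches in capitals.
Ifit1, chr19:34640639-34640888, plus strand: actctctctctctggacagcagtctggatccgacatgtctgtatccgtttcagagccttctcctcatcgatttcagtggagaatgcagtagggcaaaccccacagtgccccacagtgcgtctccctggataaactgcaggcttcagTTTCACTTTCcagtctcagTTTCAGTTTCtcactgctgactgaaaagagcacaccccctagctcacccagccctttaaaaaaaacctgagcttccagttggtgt
Oas3, chr5:120777660-120777909, minus strand: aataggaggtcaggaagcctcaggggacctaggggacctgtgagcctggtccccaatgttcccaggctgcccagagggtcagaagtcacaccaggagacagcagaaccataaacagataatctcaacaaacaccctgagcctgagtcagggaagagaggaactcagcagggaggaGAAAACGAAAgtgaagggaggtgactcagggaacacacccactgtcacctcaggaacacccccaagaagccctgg
Rsad2, chr12:26456453-26456702, minus strand: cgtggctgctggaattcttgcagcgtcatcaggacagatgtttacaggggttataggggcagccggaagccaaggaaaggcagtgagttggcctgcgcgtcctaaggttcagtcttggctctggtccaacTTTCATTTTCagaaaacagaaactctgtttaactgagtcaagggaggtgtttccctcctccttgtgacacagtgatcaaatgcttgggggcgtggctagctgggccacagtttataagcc
Gbp2, chr3:142620413-142620662, plus strand: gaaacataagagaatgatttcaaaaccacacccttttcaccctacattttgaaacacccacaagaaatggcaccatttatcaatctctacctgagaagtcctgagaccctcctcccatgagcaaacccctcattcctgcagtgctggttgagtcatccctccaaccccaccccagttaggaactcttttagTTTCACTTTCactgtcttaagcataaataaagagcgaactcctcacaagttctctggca
Bst2, chr8:71537473-71537722, minus strand: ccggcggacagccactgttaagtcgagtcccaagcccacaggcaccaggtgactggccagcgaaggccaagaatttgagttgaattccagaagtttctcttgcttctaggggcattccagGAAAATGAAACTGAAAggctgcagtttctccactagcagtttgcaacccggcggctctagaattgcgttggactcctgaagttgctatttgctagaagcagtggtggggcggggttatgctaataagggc
Matches stood before genes that fell and before Bst2 alike, and the 5 genes were chosen for display after their values were seen.

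Ifit1, an antiviral RNA-binding protein gene, was at 0.0744 and 0.125 CPM at day 1.5, 0.153 and 0 CPM at day 3 and 15.6, 12.6 and 15.8 CPM in spleen (log2 fold change -7.26 ± 0.37 SE, adjusted p = 6.41e-08). Oas3, one of the enzymes that sense double-stranded RNA, was at 0 and 0.251 CPM at day 1.5, 0.23 and 0.334 CPM at day 3 and 63.3, 40.1 and 41.7 CPM in spleen (log2 fold change -7.86 ± 0.33 SE). Gbp2, an interferon-inducible GTPase gene, was at 4.91 and 5.64 CPM at day 1.5, 3.21 and 4.01 CPM at day 3 and 353, 386 and 400.3 CPM in spleen (log2 fold change -6.43 ± 0.10 SE, adjusted p = 1.04e-10). Rsad2, which encodes viperin, had no count in the line and was at 3.27, 2.03 and 2.19 CPM in spleen. Every spleen library was above every line library for these genes.

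Other members of the list, sensors, enzymes and regulators, were lower as well. Zbp1, a sensor of Z-form nucleic acid, was at 0 and 0.0627 CPM at day 1.5, 0 CPM in both libraries at day 3 and 64.5, 66.4 and 50.6 CPM in spleen, a ratio of 3858-fold (95% counting interval 623 to 137141). Cmpk2 and Oas2 had no count in the line and were at least 75.7-fold and 32.9-fold lower. Oasl1 was at 0.267 to 0.967 CPM in the line and 103 to 129.7 CPM in spleen, and the RNA sensor gene Ifih1 at 0.67 to 1.88 CPM in the line and 85.2 to 97.2 CPM in spleen. Among the regulators, Irf7 was at 1.64 to 1.94 CPM in the line and 36.9 to 45.2 CPM in spleen (log2 fold change -4.51 ± 0.14 SE), Irf9 changed by -1.95 and Stat2 by -2.47. Of 31 members tested in the first run 27 were lower, against 12.3% of all genes there, and of 31 in the ELOF1-deficient libraries 29 were lower and 1 higher, against 33.3% and 32.3%.

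MHC class I presentation genes were lower in 18 of 19 and higher in 1 (median -1.07, and 0.13 on the fly scale with 7 higher and 6 lower, against 1.20 for all genes). The peptide transporter gene Tap1 was at 97.2 and 88.3 CPM at day 1.5, 93.2 and 77.5 CPM at day 3 and 545, 514 and 528 CPM in spleen (log2 fold change -2.57 ± 0.08 SE, adjusted p = 2.66e-09). The nonclassical class I gene H2-T22 was at 6.89 to 11.4 CPM in the line and 159 to 163 CPM in spleen, H2-T23 at 43.4 to 48.8 CPM in the line and 349.5 to 418 CPM in spleen and H2-Q7 at 58.2 to 85.4 CPM in the line and 294 to 354 CPM in spleen. H2-Q4 was slightly higher (log2 fold change 0.29 ± 0.10 SE, adjusted p = 0.0258), and its call was lost without replicate 4 of day 1.5, replicate 2 of day 3 or spleen replicate 2 or 3 (0.21, 0.25, 0.29 and 0.22). Class I genes are near-identical copies of each other and differ between strains, so the split of reads among them is uncertain.

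MHC class II presentation genes were lower in 11 of 16 and higher in 2 (median -0.60, and 0.59 on the fly scale with 9 higher and 3 lower). H2-Ab1, the A beta chain gene, was at 780.0 and 508 CPM at day 1.5, 860.3 and 593 CPM at day 3 and 2293, 2003 and 2377 CPM in spleen (log2 fold change -1.70 ± 0.16 SE, adjusted p = 4.55e-06). The peptide-loading genes H2-DMb2, H2-DMa and H2-Ob were lower too (-1.53, -1.41 and -1.72), with H2-DMa at -0.23 and without a call on the fly scale. Besides H2-Ea-ps, Rfxap, a subunit of the factor that switches class II genes on, was higher, at 49.5 to 80.0 CPM in the line and 11.8 to 16.5 CPM in spleen.

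Genes of the IL-4 receptor pathway were lower in the line in 15 of 19 and higher in 3 (median -1.19, and 0.01 on the fly scale with 8 higher and 9 lower). Both systems received IL4. Il4ra, the receptor chain that binds IL-4, was at 63.9 and 67.3 CPM at day 1.5, 72.1 and 77.4 CPM at day 3 and 1592, 1538 and 1651 CPM in spleen (log2 fold change -4.51 ± 0.07 SE, adjusted p = 1.04e-10). Fcer2a, the IL-4-induced IgE receptor CD23, was at 35.3 and 64.7 CPM at day 1.5, 27.9 and 58.6 CPM at day 3 and 705, 614 and 660.4 CPM in spleen (log2 fold change -3.82 ± 0.25 SE). Both groups were well apart, and Stat6, the transcription factor of the pathway, fell by less, with a log2 fold change of -0.77. Ccl22, a chemokine gene, was the largest member in the other direction, at 3224 and 3730.2 CPM at day 1.5, 2514 and 3247 CPM at day 3 and 104, 114 and 166 CPM in spleen (log2 fold change 4.63 ± 0.18 SE, adjusted p = 1.16e-08). The costimulatory gene Cd86 and the repressor gene Gfi1 were modestly higher (0.61 and 0.75), but against spleen day 3.5 they were at 0.26, not past the threshold, and -0.39.

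TGF-β response genes were divided, 10 of 22 higher and 11 lower (median -0.10, and 1.09 on the fly scale with 15 higher and 4 lower). Tgfbr1, the signalling receptor, was at 63.0 to 79.2 CPM in the line and 20.1 to 26.1 CPM in spleen. Ltbp1, which holds latent TGF-β in the matrix, was at 10.3 to 16.7 CPM in the line and 0 CPM in spleen, at least 42.0-fold higher. The inhibitors Ldlrad4 and Id2 were higher (3.21 and 2.93), and so was the inhibitory Smad gene Smad7, at 104 to 148 CPM in the line and 38.4 to 53.5 CPM in spleen. Pmepa1, Runx1, the ligand gene Tgfb1 and Id3 were lower, the last 3 at -1.52, -1.502 and -1.10, with Id3 at 0.10 and Tgfb1 at -0.31, without a call, on the fly scale.

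LPS and Toll-like receptor sensing genes were lower in 13 of 20 and higher in 3 (median -1.09, and 0.11 on the fly scale with 8 higher and 7 lower). The adaptor gene Myd88 was at 29.5 and 36.2 CPM at day 1.5, 28.0 and 30.9 CPM at day 3 and 128, 133 and 135 CPM in spleen (log2 fold change -2.08 ± 0.09 SE, adjusted p = 1.58e-08). Unc93b1, which escorts nucleic acid sensing receptors to endosomes, and Tlr7, one of those receptors, were lower (-2.32 and -1.72), as was Irak3 (-2.65). Tlr2 was higher, at 15.4 to 21.1 CPM in the line and 3.08 to 4.15 CPM in spleen, while Tirap and Cd180 were higher by 0.48 and 0.41, calls lost without spleen replicate 1 (0.38 and 0.40) or 2 (0.43 and 0.30). Tlr4, the LPS receptor itself, was at 4.58 to 7.04 CPM in the line and 8.55 to 10.9 CPM in spleen (log2 fold change -0.86 ± 0.19 SE).

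CD40 and NF-kB genes were close to the background, 7 of 22 higher and 9 lower (median -0.08, and 1.11 on the fly scale with 15 higher and 2 lower). The inhibitor genes Nfkbid, Nfkbia and Nfkbie rose (2.40, 1.31 and 1.002), as did Birc2 (1.54). The subunit gene Nfkb1 was at 399 and 460.1 CPM at day 1.5, 379 and 458 CPM at day 3 and 1467, 1319 and 1516 CPM in spleen (log2 fold change -1.76 ± 0.09 SE, adjusted p = 5.79e-08), and Bcl3, Map3k14 and Traf1 were also lower (-1.98, -1.39 and -1.26). Map3k14 and Traf1 were at -0.19 and -0.036 on the fly scale, without a call.

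B cell receptor signalling genes were lower in 17 of 24 and higher in 5 (median -0.82, and 0.38 on the fly scale with 13 higher and 2 lower). Fcgr2b, the inhibitory Fc receptor gene, was at 10.027 to 17.9 CPM in the line and 76.4 to 80.4 CPM in spleen, and Lat2, Vav1 and Siglecg were lower (-1.86, -1.44 and -1.31). On the fly scale Vav1 and Siglecg were at -0.24 and -0.12, without a call. Nfatc1, a calcium-dependent transcription factor gene, was at 383 and 496 CPM at day 1.5, 363 and 448 CPM at day 3 and 86.9, 79.3 and 79.6 CPM in spleen (log2 fold change 2.37 ± 0.12 SE, adjusted p = 4.69e-08). Malt1 and Prkcb, which link the receptor to NF-kB, were higher (1.96 and 1.77).

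Costimulatory and coinhibitory molecules leaned upward, 11 of 22 higher and 7 lower (median 0.56, and -0.059 against spleen day 3.5). Cd70, the ligand of CD27, was at 72.7 and 77.6 CPM at day 1.5, 82.6 and 92.9 CPM at day 3 and 0.317, 0.0966 and 0.298 CPM in spleen (log2 fold change 8.38 ± 0.19 SE, adjusted p = 4.2e-10). Tnfsf9, the 4-1BB ligand gene, was at 126 to 142 CPM in the line and 4.22 to 4.93 CPM in spleen, and Icosl at 41.7 to 74.8 CPM in the line and 1.79 to 2.61 CPM in spleen. Cd276 was at 8.57 to 15.6 CPM in the line and 0 to 0.0994 CPM in spleen, a ratio of 189.8-fold (95% counting interval 51.3 to 1529.7). Slamf1, Pdcd1lg2, Cd83 and Cd48 were lower (-4.17, -2.24, -1.36 and -1.15), with Cd48 at 0.066 and Cd83 at -0.16, without a call, on the fly scale.

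Migration genes were spread in both directions, 9 of 22 higher and 10 lower, against 34.1% and 35.1% of all genes. Their median was -0.14, and 1.07 on the fly scale with 12 higher and 8 lower. The chemokine receptor gene Cxcr4 and the integrin gene Itga4 were higher (2.004 and 2.56). S1pr4 was at 0.372 and 0.376 CPM at day 1.5, 0.23 and 0.535 CPM at day 3 and 74.2, 88.8 and 97.3 CPM in spleen (log2 fold change -7.79 ± 0.19 SE, adjusted p = 5.71e-10), and Ccr6 and Itgb7 were lower (-2.55 and -2.17). Cytokine and chemokine genes were higher in 11 of 18 tested and lower in 4 (median 0.95). The anti-inflammatory cytokine gene Il10 was at 21.4 and 26.6 CPM at day 1.5, 15.002 and 12.3 CPM at day 3 and 2.01, 1.84 and 1.59 CPM in spleen (log2 fold change 3.32 ± 0.19 SE, adjusted p = 1.5e-07), and Ccl3 and Vegfa were higher (2.84 and 0.95). Lta, which encodes lymphotoxin alpha, was lower (-2.01).

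**Figure D4:**
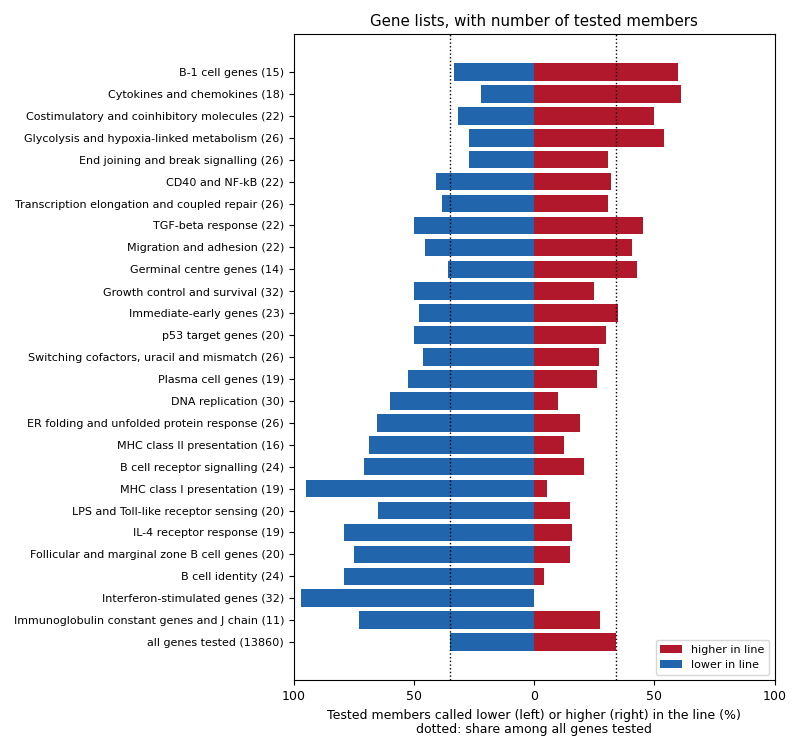
Share of the tested members of each gene list called higher (red, right) or lower (blue, left) in the line, lists ordered by median log2 fold change, tested members in brackets, lists with at least 10 tested members. Dotted lines mark the 34.1% higher and 35.1% lower among all 13860 genes, and the interferon-stimulated and MHC class I lists reach furthest to the left.

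The genes that carry out switching moved in both directions. Of 26 genes of switching cofactors and of uracil and mismatch processing, 7 rose and 12 fell (median -0.27). Scaled by fly RNA the median was 0.94 with 22 higher and 1 lower, against 78.4% and 9.38% of all genes. Ptbp2, Smug1, a uracil glycosylase gene, and Rev1 rose (1.61, 1.40 and 0.43). Pcna, the replication clamp gene, was at 179 to 201 CPM in the line and 467 to 539 CPM in spleen, and Prkar1a, Rpa2 and Apex2 also fell (-0.98, -0.87 and -0.73). On the fly scale Pcna was at -0.20 and no longer past the threshold, and Prkar1a, Rpa2 and Apex2 were at 0.21, 0.31 and 0.46.

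Of 26 end joining and break signalling genes 8 rose and 7 fell, near the 34.1% and 35.1% of all genes, and none of the group differed 4-fold (median -0.022). Their fly-scale median was 1.18 with 21 higher and 0 lower, against 78.4% and 9.38% of all genes. Prkdc, the catalytic subunit gene of DNA-dependent protein kinase, was at 138 and 159.9 CPM at day 1.5, 147 and 165 CPM at day 3 and 60.6, 71.6 and 53.1 CPM in spleen (log2 fold change 1.30 ± 0.11 SE, adjusted p = 2.63e-06). Xrcc5, the Ku80 gene, Shld2 and Rnf168 rose (1.04, 1.05 and 0.91). H2afx, Lig4, Atm and Paxx fell (-0.99, -0.97, -0.92 and -0.75), but all 4 were above 0 on the fly scale, at 0.22, 0.22, 0.29 and 0.44.

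Among 26 genes of transcription elongation and coupled repair, 8 rose and 10 fell, near the 34.1% and 35.1% of all genes. Elof1 was the member past 4-fold. The median of the group was -0.085, and 1.10 on the fly scale with 25 higher and 0 lower. Ercc6, which encodes the repair factor CSB, was at 64.6 and 107 CPM at day 1.5, 61.1 and 102 CPM at day 3 and 32.9, 38.1 and 30.5 CPM in spleen (log2 fold change 1.31 ± 0.21 SE, adjusted p = 0.000275). The Paf1 complex genes Leo1 and Cdc73 rose (0.68 and 0.57) while Paf1 fell (-0.83), and in the first run Cdc73 was at -0.41. Supt4a, Cdk9 and Xab2 fell (-1.29, -0.62 and -0.62). On the fly scale Paf1, Cdk9 and Xab2 were at 0.36, 0.58 and 0.58, and Supt4a was at -0.10 without a call.

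Growth control genes were lower in 16 of 32 and higher in 8 (median -0.21). With the fly RNA as the scale the median was 0.98 with 23 higher and 5 lower, against 78.4% and 9.38% of all genes. Ccnd1, the cyclin D1 gene, was at 38.8 and 77.2 CPM at day 1.5, 26.6 and 49.2 CPM at day 3 and 0.106, 0.193 and 0 CPM in spleen, a ratio of 482-fold (95% counting interval 164 to 2317), whereas Ccnd2 was at 414 and 627 CPM at day 1.5, 336 and 527 CPM at day 3 and 1483, 1471 and 1421 CPM in spleen (log2 fold change -1.62 ± 0.16 SE). The line thus held more Ccnd1 and less Ccnd2 RNA, with no overlap for either of these D-type cyclin genes. Cdk6 and Myc were higher (2.65 and 1.20), and the inhibitor genes Cdkn1a and Cdkn2d were lower (-1.78 and -2.27), as was Bak1 (-1.28). Of 20 p53 target genes 6 rose and 10 fell (median -0.26, and 0.93 on the fly scale with 14 higher and 3 lower), with Sesn1, Sesn2 and Pmaip1 higher (1.75, 1.52 and 1.39) and Trp53inp1, Phlda3 and Tnfrsf10b lower (-2.01, -1.71 and -1.67). Bak1 and Phlda3 lost their calls on the fly scale, at -0.092 and -0.50.

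DNA replication genes were lower in 18 of 30 and higher in 3, by small amounts (median -0.29). On the fly scale the median was 0.91 with 25 higher and 1 lower, against 78.4% and 9.38% of all genes. Rrm2, a ribonucleotide reductase subunit gene, was at 121 to 145 CPM in the line and 392 to 445 CPM in spleen, and Mcm3, Mcm7 and Dut were lower (-1.23, -1.09 and -1.03). Rfc4, Cdc45 and Mcm10 were higher (0.45, 0.37 and 0.24). On the fly scale Mcm7 and Dut were at 0.10 and 0.17, and Mcm3 was at -0.037 without a call.

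Glycolysis genes were higher in 14 of 26 and lower in 7 (median 0.51). The enolase gene Eno2 was at 60.3 and 56.4 CPM at day 1.5, 72.1 and 70.2 CPM at day 3 and 5.17, 3.38 and 2.68 CPM in spleen (log2 fold change 4.11 ± 0.17 SE, adjusted p = 1.43e-08), and Pfkm and Eno3 were higher (1.77 and 1.53). The lactate transporter gene Slc16a3 was at 53.2 to 98.2 CPM in the line and 12.5 to 20.8 CPM in spleen but lower in the first run, at -5.29. Aldoc was at 0.383 to 0.735 CPM in the line and 10.2 to 16.043 CPM in spleen, and Hk1, Gpi1 and Gapdh were slightly lower (-0.79, -0.37 and -0.34), all 3 above 0 on the fly scale.

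Genes of ER folding and the unfolded protein response were lower in 17 of 26 and higher in 5 (median -0.39, and 0.79 on the fly scale with 15 higher and 3 lower). Xbp1, the transcription factor of the secretory programme, was at 151 and 130.0 CPM at day 1.5, 149.9 and 140.2 CPM at day 3 and 390.1, 503 and 401 CPM in spleen (log2 fold change -1.60 ± 0.10 SE, adjusted p = 2.81e-07), and Creld2, Pdia4 and Edem1 were lower (-1.54, -1.49 and -1.21), with Edem1 at -0.022 and without a call on the fly scale. Ddit3, Atf4, Ern1 and Sel1l were higher (1.45, 0.97, 0.95 and 0.65). Among immediate-early genes 8 of 23 rose and 11 fell (median -0.24, and 0.96 on the fly scale with 12 higher and 5 lower). Nr4a2 and Ier3 were higher (4.63 and 4.07), as were Dusp1 and Dusp2 (1.24 and 1.22). Egr2 was at 7.35 to 21.4 CPM in the line and 61.9 to 89.2 CPM in spleen, Egr3 at 0.383 to 0.67 CPM in the line and 9.37 to 12.8 CPM in spleen and Atf3 at 0 to 0.153 CPM in the line and 9.47 to 18.9 CPM in spleen. Jun was at 3.57 and 17.7 CPM at day 1.5, 2.22 and 22.6 CPM at day 3 and 53.5, 61.9 and 57.0 CPM in spleen, and with robust dispersions its adjusted p was 0.0686.

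Markers of other cell types were low in spleen, and a few were high in the line. The 17 T and NK cell markers summed to 158.8 to 214.03 CPM in the line and 5.17 to 5.60 CPM in spleen. The line's sum was mostly Cd28, with the T cell receptor genes Trbc1 and Trbc2 at 0 and Cd3e at 0 to 0.251 CPM. Of the 17, 3 had no count in any line library and 1 had none in any spleen library. All 4 that were tested were higher in the line. The 20 myeloid and dendritic markers summed to 109 to 165 CPM in the line and 37.6 to 48.5 CPM in spleen, led by Csf1r, the CSF-1 receptor gene, at 29.5 to 43.8 CPM in the line and 0 to 0.199 CPM in spleen, and Adgre1, the F4/80 gene, at 19.1 to 57.3 CPM in the line and 2.22 to 6.16 CPM in spleen. Of these 20, 7 had no count in any line library, among them Cd14, S100a8 and C1qb, and 7 had none in any spleen library. Of the 7 tested, 6 were higher in the line and 1 lower. A marker that passed the filter through the line alone had to differ, so no share is drawn from these counts. The 12 stromal and endothelial markers summed to 6.84 to 10.9 CPM in the line and 44.6 to 61.7 CPM in spleen, mostly Pecam1 at 1.49 to 3.14 CPM in the line and 43.4 to 57.9 CPM in spleen, and the 12 erythroid and platelet markers to 3.01 to 4.55 and 0.596 to 2.22 CPM. The part of other cells in the results was not tested, and in these bulk libraries fewer cells of a type and less RNA per cell cannot be told apart.

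The regions and groups described next were chosen after their values were seen and are given without a test. On chromosome 4, Mtap (89137122 to 89181081, plus strand, mm10), Cdkn2a (89274471 to 89294653, minus strand) and Cdkn2b (89306289 to 89311032, minus strand) lie side by side. All 3 had no count in any of the 4 line libraries. Cdkn2a, which encodes the tumour suppressors p16 and p19ARF, had 38, 44 and 47 counts in the spleen libraries, and Cdkn2b had 23, 15 and 19. In the other 12 line libraries of the series Mtap had 1 count, and Cdkn2a and Cdkn2b had none. Genes on either side were transcribed in the line, Klhl9 (88718292 to 88722465) at 82.2 to 119 CPM and the noncoding Gm12609 (89381957 to 89399880) at 10.6 to 14.7 CPM. Gm12609 had 0 or 1 count in each spleen library.

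Hox genes encode developmental transcription factors. Hoxc4 was at 22.7 CPM on average in the line and 0.0683 CPM in spleen, Hoxd4 at 9.70 CPM and 0, Hoxc6 at 7.34 CPM and 0, and Hoxa5 at 6.95 CPM and 0. Of 16 Hox genes that passed the filter 12 had no count in spleen, and genes of the a, b, c and d clusters were all among the 16. A gene that passed through the line alone had to differ, so no share is drawn from this count.

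Chromosomes 14 and 16 stood above the rest in the line. Among 11099 protein-coding genes with a mean above 1 CPM, the median log2 fold change was 0.58 on chromosome 14 (367 genes) and 0.47 on chromosome 16 (353 genes). On the other 18 chromosomes it lay between -0.25 and 0.14. In libraries outside the comparison, the medians of chromosomes 14 and 16 were 0.36 and 0.42 in the first run, and 0.59 and 0.56 in the ELOF1-deficient libraries. Gene span moved with the direction as well: genes under 10 kb had a median of -0.25 and genes of 100 kb or more 0.17, with 24.0% and 45.4% of them called higher.

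**Figure D5:**
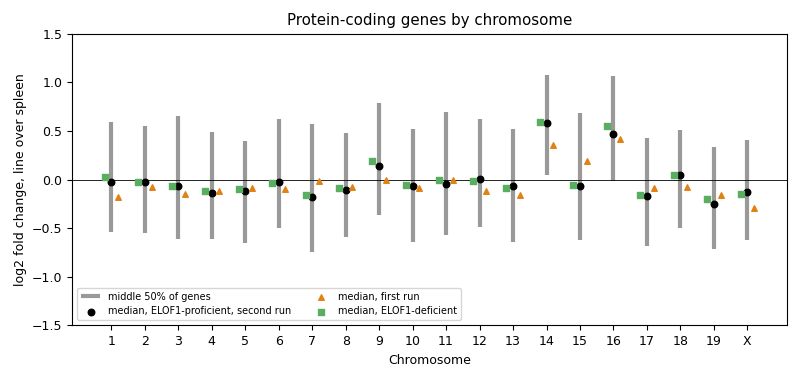
Median log2 fold change of protein-coding genes, line over spleen, on each chromosome (black circles), with grey bars for the middle 50% of genes and the same medians in first-run (triangles) and ELOF1-deficient (squares) libraries. Chromosomes 14 and 16 are highest in the second-run libraries, at 0.58 and 0.47.

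The difference between the systems was also present in libraries that share none with those above. Of the 1497 genes at least 4-fold higher in the line, 1386 were also tested in the ELOF1-deficient line and spleen libraries of the second run and 1340 of these were called higher there, against 32.3% of all genes. Of the 1148 at least 4-fold lower, 1083 were tested and 1079 were called lower, against 33.3%. In the first run, with 2 line libraries of day 1.5 and 2 spleen libraries, 1154 of 1291 and 919 of 1001 were called in the same direction, against 15.5% and 12.3% of all genes there. One of those spleen libraries, replicate 5, stood apart in its V genes, with 34.9% of heavy V counts on Ighv1-52, and values without it were not computed. In the first run 3800 of 13688 genes (27.8%) were called in all.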

How the data were processed

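RNA was measured in CH12F3 cells and spleen B cells. The authors deposited raw read counts per gene, 1 table per system. Per the submitters' processing notes, the tools were Bowtie2 and featureCounts and the builds mm10 (mouse) and dm6 (fly). The sources used here do not give the gene release, strand use or handling of multimapping reads. Gene lengths and coordinates are as deposited (other columns of the tables, per the file headers). The tables were joined on gene identifier (60854 genes, 43345 mouse, 17509 fly), and 42461 mouse genes got a symbol from GENCODE vM21. Fly genes entered no library size. The unnamed genes took 0.394% to 0.431% of mouse reads.

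Counts were tested with edgeR 4.0.16 (quasi-likelihood, limma 3.58.1, R 4.3.3), TMM scaling, filterByExpr (minimum count 10) and a term for each group, contrasting the mean of both line days with spleen. Calls needed a p under 0.05 after Benjamini-Hochberg adjustment, and the procedure was tested on simulated data. The simulated libraries were independent and few of their genes differed, unlike here, so that run does not give the error rate of these calls. Levels are CPM after scaling. Folds against a group at 0 are bounds from 3 counts per library. Groups with 1 to 3 counts in total have 95% Poisson intervals. Tested genes had median counts of 207 to 365 per library.

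Another 5 values per library were compared by exact 2-sided permutation (SciPy 1.17.1, Python 3.11.15). Named genes are Elof1, the antibody constant genes, the 12 largest higher and lower genes of at least 20 CPM without overlap, and up to 4 members per list and direction of at least 5 CPM. Others named are members of those lists or were chosen after their values were seen. The members and the 31 lists were chosen with earlier results of these data known. The expression of Iglc1, Iglc3, Gbp5, Gbp6 and Shld3 was not analysed here, and some other genes are not reported here. Alternatives included DESeq2 1.42.0, fly scaling, other filters and models, and other libraries.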

Additional observations from a re-analysis of the deposited data

Results flagged for a closer look

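Among the 4 line libraries, 10 of 196 values had 1 library whose gap to the nearest other exceeded Dixon's 95% limit, and chance alone flags about 1 in 20. Ighg2b was at 2.76 CPM in replicate 4 of day 1.5 and at 4.54 to 4.68 CPM in the others. Tlr7 was at 22.8 CPM in the same library against 30.4 to 31.8 CPM. H2-T23 was at 43.4 CPM in replicate 2 of day 3 against 48.2 to 48.8 CPM. In replicate 3 of day 1.5, Sesn1 was at 66.4 CPM against 56.0 to 57.7 CPM, Rfc4 at 69.1 against 56.5 to 58.0 CPM and Oasl1 at 0.967 against 0.267 to 0.383 CPM.

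The other 4 flags came from genes with counts in 1 line library only. Pag1 was at 0.267 CPM in replicate 2 of day 3, Klf2 at 0.0765 CPM in replicate 1 of day 3, Bcl6 at 0.0744 CPM in replicate 3 of day 1.5, and Zbp1 at 0.0627 CPM in replicate 4 of day 1.5, each against 0 in the other line libraries.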

How the results depend on the processing

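Of 4554 values of the 198 named genes under 23 alternatives, 4360 kept their direction and their side of the threshold, 155 kept the direction but lost the call and 39 reversed. The number of genes called was 9597, and it was 3800 in the first run, which has 2 libraries a side, and 3597 when the test was against a 2-fold difference, a stricter question. Genes at least 4-fold higher and lower numbered 958 and 730 with a minimum count of 50, where fewer genes (11149) were tested. Scaled by fly RNA, 3252 were at least 4-fold higher, since the median of all genes moves by 1.20. Leaving out 1 library gave 8771 to 9519 called genes, 1497 to 1586 higher and 1092 to 1303 lower. With robust dispersions Mmp10 and Jun lost their calls, and 49 named genes did in the test against 2-fold. Summing the line libraries in 2 pairs, an alternative chosen after seeing the data, gave 8920 called genes.

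A block for the replicate number gave 9253 called genes, and of the named genes the block ended the call of Arid3a alone (adjusted p = 0.0737, edgeR). Same-numbered line and spleen libraries did not deviate together (correlations -0.003, -0.007 and 0.019). The labels give no link between them beyond the number, and so few libraries cannot settle whether there was another.

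The system difference in fly over mouse counts (log2), -1.01, was -0.33 in the first run, and with 1 library left out it ranged from -1.09 to -0.94. The top heavy and kappa V shares differed by 78.6 and 66.4 points in the first run. The Ighg1 to Ighm difference was -3.79 in the ELOF1-deficient libraries.

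Directions reversed as follows, as log2 fold changes, and the cause was not tested. In the ELOF1-deficient libraries Elof1 was at -1.62, Iglc2 at -0.62 and Gapdh at 0.044. In the first run Iglc2 was at -0.74, Arid3a at 0.12, Apex2 at 0.67, Paxx at 0.022, Cdc73 at -0.41, Cd86 at -0.37, H2-Q4 at -0.020, Phlda3 at 0.33, Slc16a3 at -5.29, Gapdh at 0.24 and Vegfa at -0.039. Against spleen day 3.5 Iglc2 was at -0.62, Jchain at -0.39, Tent5c at -0.11 and Gfi1 at -0.39. On the fly scale Igkc was at 0.030, Arid3a 0.996, Mef2c 0.088, Ezh2 0.49, Prkar1a 0.21, Rpa2 0.31, Apex2 0.46, H2afx 0.22, Lig4 0.22, Atm 0.29, Paxx 0.44, Paf1 0.36, Cdk9 0.58, Xab2 0.58, Id3 0.10, Cd48 0.066, Mcm7 0.10, Dut 0.17, Hk1 0.40, Gpi1 0.82 and Gapdh 0.85. A further 16 named genes lost their call on that scale with the same direction (Ighm, Spn, Slamf7, Pcna, Supt4a, Tgfb1, Map3k14, Traf1, Vav1, Siglecg, Cd83, H2-DMa, Bak1, Phlda3, Mcm3 and Edem1).

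Of 30 list medians, 18 changed sign on the fly scale, and 13 of these were within 0.5 of 0 before. The other 5 were the IL-4 (0.012), LPS (0.11), B cell receptor (0.38), MHC class II (0.59) and MHC class I (0.13) lists. With a minimum count of 50 the median of the stromal markers was -4.45, from fewer genes. Against spleen day 3.5 that of the costimulatory list was -0.059. Under every other alternative 0 to 3 medians changed sign, all within 0.5 of 0 before. Low counts limit genes near 0, where 3 counts are 0.188 to 0.317 CPM.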

Other observations

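Libraries outside the comparison showed V gene use of the same kind in the line and a different one in a single spleen library. In the other 12 line libraries Ighv1-53 took 98.5% to 99.4% of heavy V counts. In wild-type spleen replicate 5 of day 2.5, from the first run, Ighv1-52 took 34.9% of heavy V counts and Igkv1-117 took 54.6% of kappa V counts, against 6.20% and 6.44% for the top genes of replicate 4 of that run.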
